A study of Mus musculus with 12 samples.

Results

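The genes of the major histocompatibility complex (MHC) and of antigen presentation were followed through aging of the mouse testis. Members were chosen by name: every gene whose symbol starts with H2-, the prefix of the mouse MHC, together with B2m, Tap1, Tap2, Tapbp, Cd74, Ciita, Nlrc5, Cd1d1 and Erap1. The rule gave 53 genes, 44 of them with an H2- symbol, of the 24516 named genes in the table, and these members held 87 of its 71967 transcripts. RNA came from testes of C57BL/6 mice, an inbred strain, at the ages of 3, 6, 12 and 18 months (3M, 6M, 12M and 18M), with 3 mice and 3 libraries at each age and no treatment or genetic change at any age. Whole testis was used, so the values mix germ cells, Sertoli cells, Leydig cells, vessels and immune cells, and fewer cells of a type cannot be told apart from less RNA per cell.

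Class I molecules carry peptides from inside the cell to the surface, where CD8 T cells read them. Each is a heavy chain bound to beta-2-microglobulin (B2m), loaded in the endoplasmic reticulum after the peptides are pumped in by the TAP1 and TAP2 transporter, trimmed by ERAP1 and matched to the groove with the help of tapasin (Tapbp). Class II molecules carry peptides from taken-up material on macrophages, dendritic cells and B cells, with the invariant chain (Cd74) and the H2-DM pair as helpers, and their genes are switched on by CIITA, as class I genes are by NLRC5. The testis is known as an immune-privileged organ in which germ cells carry little class I, while macrophages between the tubules carry class II.

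The deposited read counts summed to between 50924104 and 71803379 per library, and the members took 0.0252% to 0.0368% of the reads assigned to named genes. Libraries of the same age correlated at a Pearson r of 0.9945 to 0.9961 across genes on the log2(CPM + 1) scale, where CPM is the count scaled to a common library size after TMM normalization, and none held the same values as another. Germ cell markers were abundant (Prm2 at a mean of 5825 CPM), while of 5 epididymal markers Lcn5 and Adam7 had 0 reads, Lcn8 had 8, Crisp1 had 106 and Rnase10 had 2746 (4.26 CPM). One 6M library, 6M-3, had the highest summed level of Leydig markers (1281 CPM, against 549 to 1002 in the other 11), of macrophage markers and of Sertoli markers. The same library had the lowest summed level of germ cell markers (9460 CPM, against 10015 to 14003 in the other 11). Intervals and limits cover only the spread between these libraries and the counting of reads.

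Promoters of 5 members are shown, B2m and 2 classical class I heavy chains and 2 class II chains, since NLRC5 and CIITA complexes are known to act through X and Y boxes in promoters of such genes. They were read from the RefSeq promoter table (build GRCm38.p6, 250 bases before to 50 after the start of the gene), which held 36 of the 53 members. Capitals mark matches on either strand to CCAAT (the Y box), TGACG (the core of the X2 box, TGACGTCA in full), GAANNGAAA (a part of the interferon-stimulated response element) and the kappaB site, whose letters are the first run of capitals in H2-K1. The windows lie at chr17:34000298-34000597 (minus strand) for H2-K1, chr17:35262844-35263143 (plus) for H2-D1, chr2:122147437-122147736 (plus) for B2m, chr17:34287774-34288073 (minus) for H2-Aa and chr17:34305617-34305916 (plus) for H2-Eb1.
H2-K1: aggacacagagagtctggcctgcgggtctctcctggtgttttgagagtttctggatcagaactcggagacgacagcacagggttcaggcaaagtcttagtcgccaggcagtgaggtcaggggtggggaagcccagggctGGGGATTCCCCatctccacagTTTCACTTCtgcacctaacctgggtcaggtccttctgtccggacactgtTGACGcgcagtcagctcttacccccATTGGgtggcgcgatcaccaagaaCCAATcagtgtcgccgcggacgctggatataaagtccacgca
H2-D1: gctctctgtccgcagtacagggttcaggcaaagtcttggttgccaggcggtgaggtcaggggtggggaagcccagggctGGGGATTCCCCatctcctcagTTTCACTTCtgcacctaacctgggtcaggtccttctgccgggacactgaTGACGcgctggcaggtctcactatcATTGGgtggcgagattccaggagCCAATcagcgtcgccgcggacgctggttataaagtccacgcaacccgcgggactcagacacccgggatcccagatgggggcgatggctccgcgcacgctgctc
B2m: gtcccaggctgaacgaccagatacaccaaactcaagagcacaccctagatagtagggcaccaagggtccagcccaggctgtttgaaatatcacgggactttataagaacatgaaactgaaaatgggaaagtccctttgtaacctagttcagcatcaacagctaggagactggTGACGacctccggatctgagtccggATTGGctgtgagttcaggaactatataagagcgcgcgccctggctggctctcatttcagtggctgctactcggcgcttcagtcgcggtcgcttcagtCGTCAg
H2-Aa: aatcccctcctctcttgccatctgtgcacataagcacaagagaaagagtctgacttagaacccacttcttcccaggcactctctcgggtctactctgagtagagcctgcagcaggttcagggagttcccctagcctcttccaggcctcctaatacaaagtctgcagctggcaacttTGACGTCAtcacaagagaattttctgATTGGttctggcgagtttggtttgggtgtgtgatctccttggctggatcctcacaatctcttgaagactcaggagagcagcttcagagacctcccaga
H2-Eb1: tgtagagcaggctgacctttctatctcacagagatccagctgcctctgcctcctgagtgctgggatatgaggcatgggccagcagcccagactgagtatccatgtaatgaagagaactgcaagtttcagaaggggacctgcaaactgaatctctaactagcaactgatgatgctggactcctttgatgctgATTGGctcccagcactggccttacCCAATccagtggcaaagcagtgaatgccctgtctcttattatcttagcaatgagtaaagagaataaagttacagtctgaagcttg

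H2-K1 and H2-D1 held the same order of matches, with the kappaB site and the interferon-stimulated element first, then the X2 core and 2 Y boxes. B2m and H2-Aa each held the X2 core upstream of a Y box, with no match to the kappaB letters or to GAANNGAAA. H2-Eb1 held 2 Y boxes with no X2 core in these letters. Other forms of the kappaB site and of the interferon-stimulated element were not searched, so a missing match does not show that an element is absent. Of the 32851 promoters in the table, 37.4% held CCAAT, 20.8% TGACG, 1.79% TGACGTCA, 7.52% GAANNGAAA and 0.0304% the kappaB letters. Of the 36 members with a promoter, 32 held CCAAT, 14 TGACG, 1 (H2-Aa) TGACGTCA, 8 GAANNGAAA and 3 (H2-K1, H2-D1 and H2-Q6) the kappaB letters. The kappaB pattern was 1 fixed run of letters, the one that H2-K1 holds. The H2-K1 and H2-D1 sequences are much alike around it, so their matches are not independent. Matches to short motifs overlap by construction, since TGACG is a part of TGACGTCA, and a match does not show that a factor is bound.

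A high, a middle and a low level of expression could be seen among the members in FPKM, the deposited level per length of transcript and per library size. B2m (26.6 ± 4.64 FPKM, SD over 12 libraries), the class I heavy chain H2-K1 (24.5 ± 1.90) and tapasin (20.4 ± 2.61) were highest and among the top 13.1% to 16.1% of the 22685 genes with reads. H2-D1, the other classical class I heavy chain, followed at 10.3 ± 1.41 FPKM. The neighbours in this order overlapped: B2m spanned 20.6 to 38.9 FPKM, H2-K1 21.4 to 27.3 and tapasin 16.99 to 26.9, while H2-D1 (8.29 to 13.5) lay below all 3 of them. A middle group between 2.76 and 7.59 mean FPKM held the class II chains H2-Ab1 (5.99), H2-Aa (4.75) and H2-Eb1 (2.76), their helpers Cd74 (7.50), H2-DMa (5.50) and H2-DMb1 (2.98), the class I transactivator Nlrc5 (3.40), and H2-Ke6 (7.59), a gene of the MHC region that encodes a hydroxysteroid dehydrogenase and not a presenting molecule. The TAP transporter was far below its partners at 0.376 FPKM for Tap1 and 0.581 for Tap2, with Erap1 at 0.901. The members of this low level that passed the filter on low counts were the class I genes H2-Q4 (1.67), H2-T23 (1.51), H2-M5 (1.46), H2-Q7 (1.04), H2-M3 (0.506), H2-T22 (0.503), H2-L (0.448), H2-T9 (0.420), H2-T24 (0.360), H2-Q8 (0.339), H2-Q6 (0.290), H2-Q5 (0.187), H2-Q2 (0.178), H2-M10.2 (0.126), H2-Bl (0.120), H2-K2 (0.114), H2-Q9 (0.111), H2-Q1 (0.0860) and H2-T10 (0.0427), and Cd1d1 (0.310), which presents lipids.

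**Figure D1:**
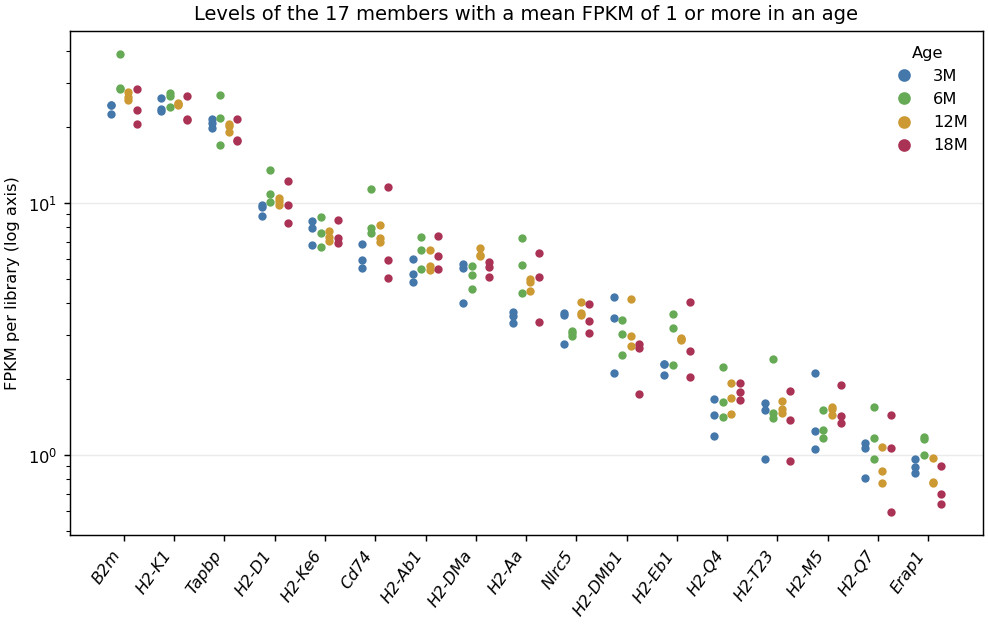
FPKM (log axis) of the 17 members whose mean reached 1 FPKM at some age, 1 point per library, coloured by age and ordered by mean. B2m, H2-K1 and Tapbp lie between 16.99 and 38.9 FPKM in all 12 libraries, above every value of the other 14.

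No member was called in any comparison between ages. edgeR (quasi-likelihood test, adjusted p of 0.05 or less over all genes) called 0 of 35 members for the slope over the 4 ages, against 0.41% of all 18545 genes tested, and 0 of 31 between 18M and 3M, against 0.0662%. The steps between neighbouring ages gave 0 of 32 members for 6M against 3M (all genes, 0.0497%), 0 of 30 for 12M against 6M (0.0606%) and 0 of 32 for 18M against 12M (0.0275%). With so few calls among all genes, 0 calls among the members is near the background. At an unadjusted p of 0.05 or less, the slope gave 3 of 35 members (8.57%, against 17.5% of all genes; 1 of the 3 had a positive slope, as did 8.26% of all genes) and 18M against 3M gave 1 of 31 (3.23%, against 13.5%), which was higher at 18M, as were 6.28% of all genes. DESeq2 called 0 members in the slope and 1 in the steps between ages, H2-Aa, described below, and limma-trend on log2 FPKM called 0 in each. The median fitted change of the members was 0.0012 log2 units per month in the slope, where the median of all genes was -0.0002.

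**Figure D2:**
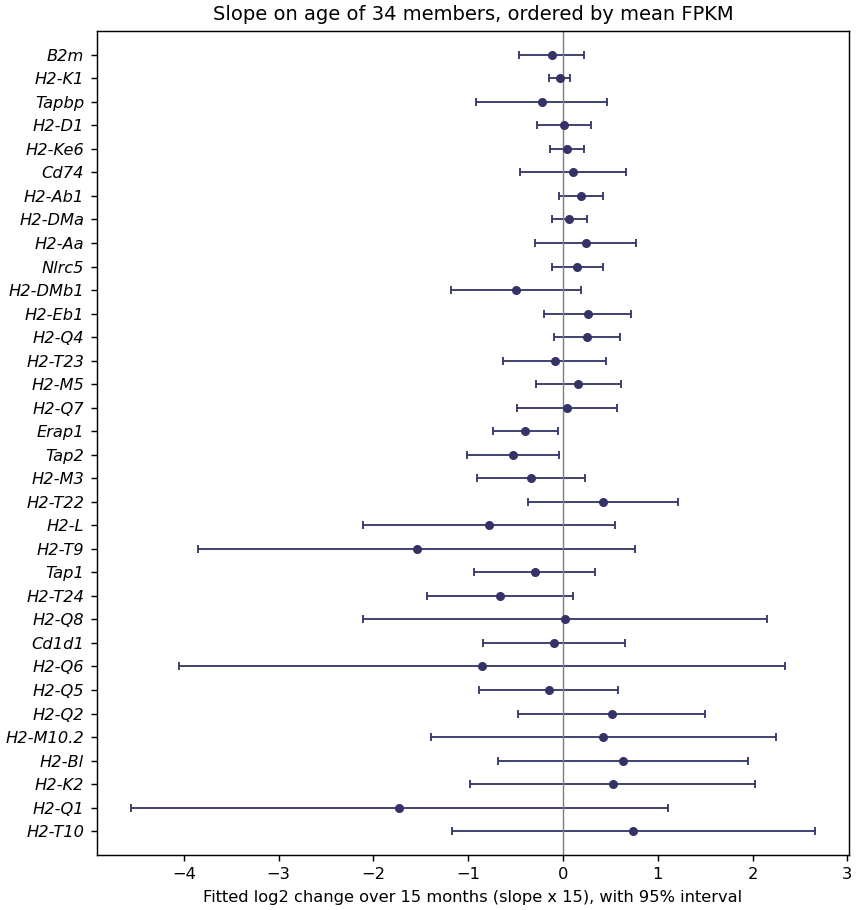
Fitted log2 change over 15 months (the slope on age times 15) of 34 members with its 95% interval, ordered by mean FPKM from top to bottom; the 35th, H2-Q9, had 0 reads in 8 libraries and is left out. The intervals of Erap1 and Tap2 lie below 0 and the other 32 include 0, and the intervals are narrow for H2-K1 (-0.15 to 0.08) and wide for members with few reads.

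The classical class I heavy chains stayed within a narrow range. H2-K1, at chr17:33996012-34001235 on mm10, had 43.3, 45.5 and 44.0 CPM at 3M, 42.8, 46.5 and 47.8 at 6M, 44.6, 44.0 and 43.5 at 12M, and 46.9, 41.9 and 42.6 at 18M. The 4 ages overlapped throughout. Its fitted change over 15 months was -0.04 ± 0.05 log2 units (SE, adjusted p = 0.748), with a 95% interval of -0.15 to 0.08, the narrowest among the members. H2-D1 had 17.3, 18.6 and 19.2 CPM at 3M, 21.3, 19.6 and 25.8 at 6M, 20.0, 19.3 and 20.7 at 12M, and 23.8, 16.4 and 19.4 at 18M. All 3 values at 6M lay above those at 3M, as in 4.77% of all genes tested. The 18M libraries held both the second highest and the lowest value of H2-D1. Its slope was 0.01 ± 0.13 over 15 months (adjusted p = 0.974), and its sign turned in 8 of the alternatives.

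B2m and the loading machinery did not move together. B2m, on chromosome 2, had 23.7, 23.4 and 21.8 CPM at 3M, 27.4, 27.6 and 36.7 at 6M, 26.8, 24.97 and 25.8 at 12M, and 27.4, 20.1 and 22.9 at 18M. It was highest at 6M, where its 3 values lay above all those of 3M (as in 4.77% of all genes tested) and of 12M (7.99%). Its slope over 15 months was -0.12 ± 0.16 (adjusted p = 0.728). Erap1, the trimming peptidase, had 4.35, 3.81 and 4.08 CPM at 3M, 5.26, 5.33 and 4.41 at 6M, 3.55, 4.41 and 3.56 at 12M, and 4.08, 2.92 and 3.22 at 18M. Its means were 4.08 ± 0.274, 4.998 ± 0.513, 3.84 ± 0.497 and 3.41 ± 0.602 CPM (SD, n = 3) in the order of age. The fitted change of Erap1 was -0.40 ± 0.16 log2 units over 15 months, with an unadjusted p of 0.0252 and an adjusted p of 0.228 in edgeR, so it was not called.

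Tap2 had 1.93, 1.89 and 1.76 CPM at 3M, 1.57, 1.52 and 2.75 at 6M, 1.15, 1.29 and 1.54 at 12M, and 1.73, 1.09 and 1.41 at 18M. Every 18M value lay under every 3M value, as it did in 10.7% of all genes tested, and H2-Q4 was the only 1 of the 31 members tested with every 18M value above every 3M value (3.36 to 3.91 against 2.41 to 3.35 CPM), as were 9.74% of all genes. The change of Tap2 over 15 months was -0.52 ± 0.23 (unadjusted p = 0.0366, adjusted p = 0.258 in edgeR), and without 6M-3 the slope was -0.0264 per month in place of -0.0348. Its partner Tap1 had 1.67, 1.29 and 1.04 CPM at 3M, 1.14, 0.999 and 1.84 at 6M, 1.58, 1.07 and 1.25 at 12M, and 1.66, 0.685 and 0.860 at 18M. The ages of Tap1 overlapped, and its fitted change was -0.30 ± 0.30 (adjusted p = 0.625). Both genes together stand for few reads, with 810 reads for Tap1 and 1056 for Tap2 over the 12 libraries.

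**Figure D3:**
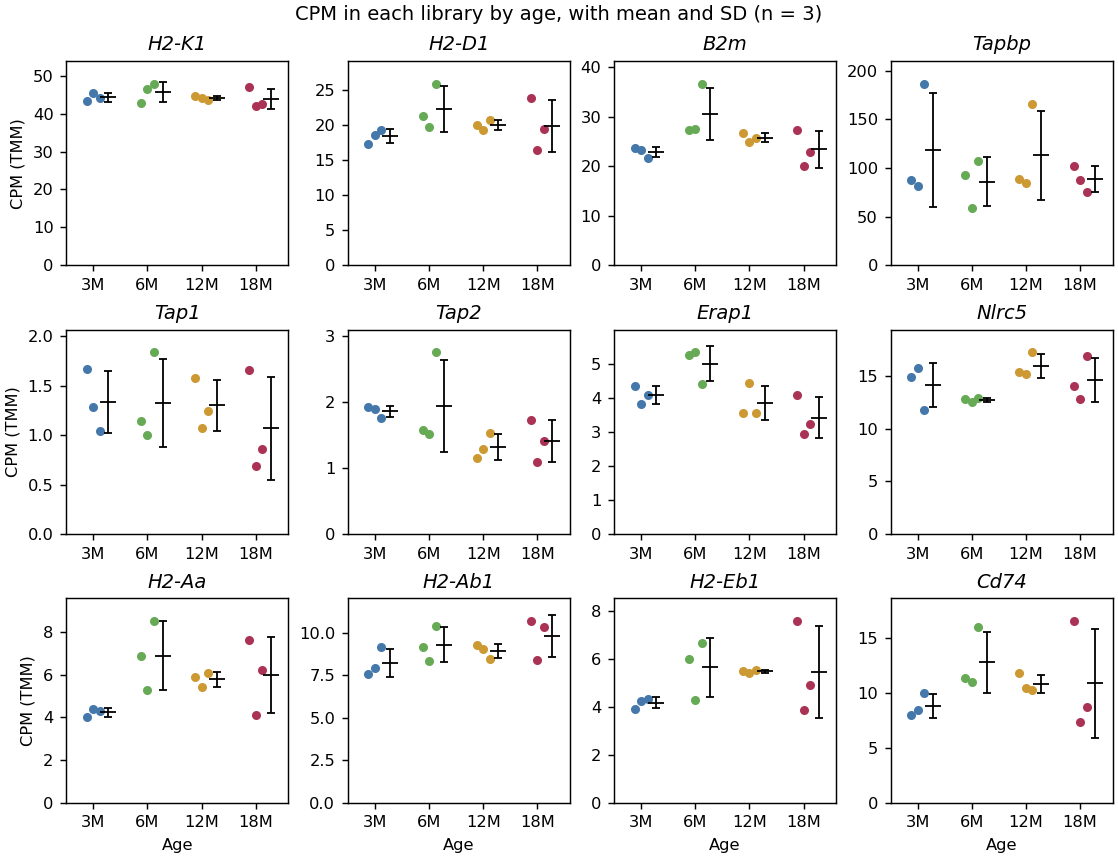
CPM of 12 members in each library (points, in order of mouse number) by age, with the mean and SD of the 3 libraries beside them; every axis starts at 0. B2m, H2-D1, Erap1, Cd74 and H2-Aa lie higher in all 3 libraries of 6M than in those of 3M, as do 4.77% of all genes tested. The 18M libraries of Cd74 reach from 7.29 to 16.5 CPM.

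Tapasin carried the largest number of assigned reads of all members (66090), and most of them were not in its reference transcripts. The summed CPM was 88.0, 81.5 and 187 at 3M, 92.5, 59.0 and 107 at 6M, 88.9, 84.8 and 166 at 12M, and 102, 88.2 and 75.8 at 18M. Libraries 3M-3 and 12M-3 stood far above the rest. The assembly gave tapasin 11 transcripts, 2 of the reference and 9 assembled ones, and several of these run into the neighbouring genes on the same strand: 43.7% to 46.0% of the exon bases of 6 of them lie only in exons of Zbtb22, and 28.2% of those of the longest (9262 nt) only in exons of Daxx. The assembled transcripts held 99.9% of the reads in 3M-3 and 99.8% in 12M-3, against 55.2% to 78.2% in the other 10 libraries. Counted on the annotated exons of tapasin alone (GENCODE vM21), the values were 62.6, 65.3 and 73.0 CPM at 3M, 72.0, 56.8 and 88.1 at 6M, 61.4, 64.6 and 79.9 at 12M, and 66.6, 58.1 and 59.2 at 18M. On that scale 3M-3 and 12M-3 lay within the range of the other libraries. The slope of the summed reads was -0.22 ± 0.32 over 15 months (adjusted p = 0.752), and without 3M-3 it turned from -0.0149 to 0.0099 per month.

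**Figure D4:**
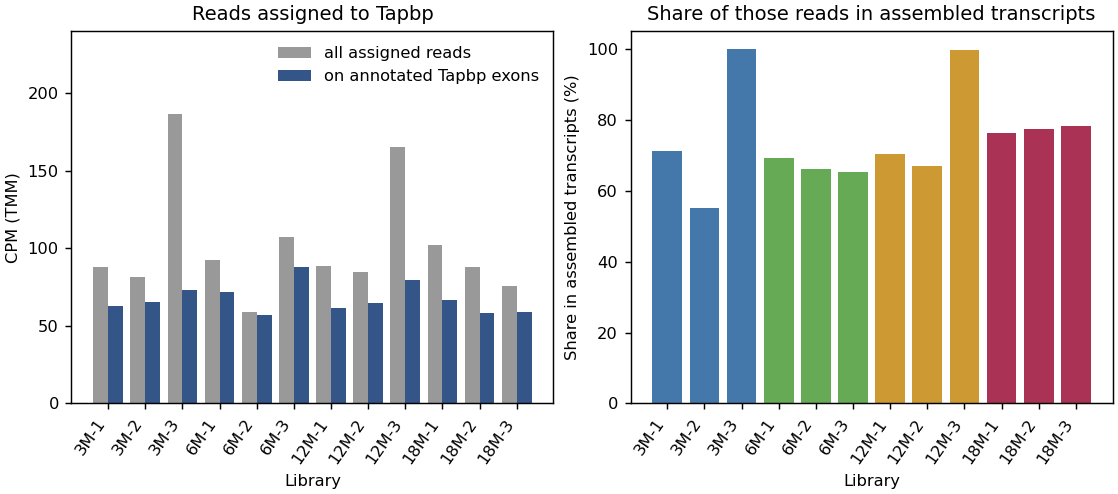
Left, CPM of all reads assigned to Tapbp (grey) and of those on its annotated exons (blue) in each library; right, the percentage of the assigned reads that sit in transcripts assembled by the authors. In 3M-3 and 12M-3 the grey bars reach 187 and 166 CPM and the assembled share is 99.9% and 99.8%, while the blue bars stay between 56.8 and 88.1 CPM in all 12 libraries.

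The class II chains differed between mice of the same age, most of all at 18M, and none was called. H2-Aa, the alpha chain of the I-A molecule, had 4.01, 4.41 and 4.28 CPM at 3M, 6.86, 5.30 and 8.52 at 6M, 5.88, 5.41 and 6.07 at 12M, and 7.64, 4.11 and 6.22 at 18M. All values of 6M lay above those of 3M, as in 4.77% of all genes tested, while at 18M 1 mouse was back at the 3M level. H2-Ab1, its beta chain, had 7.59, 7.89 and 9.14 CPM at 3M, 9.14, 8.34 and 10.4 at 6M, 9.25, 9.04 and 8.45 at 12M, and 10.7, 8.38 and 10.3 at 18M. The fitted changes over 15 months were 0.24 ± 0.25 for H2-Aa (adjusted p = 0.645) and 0.19 ± 0.11 for H2-Ab1 (adjusted p = 0.371). H2-Eb1, the beta chain of I-E, had 3.91, 4.27 and 4.34 CPM at 3M, 6.01, 4.29 and 6.66 at 6M, 5.49, 5.43 and 5.54 at 12M, and 7.58, 3.89 and 4.91 at 18M. Its slope was 0.26 ± 0.21 over 15 months (adjusted p = 0.548), and its 18M values spanned both its highest and its lowest value of all libraries. The alpha chain of I-E is a pseudogene in this strain, H2-Ea-ps, and 10 of 12 libraries had 0 reads of it.

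The invariant chain Cd74 was highest in 18M-1, as H2-Aa was among the 18M libraries. Its values were 7.93, 8.46 and 9.96 CPM at 3M, 11.4, 10.98 and 16.0 at 6M, 11.7, 10.4 and 10.2 at 12M, and 16.5, 7.29 and 8.71 at 18M. Library 18M-1 was highest and 18M-2 lowest, and the slope was 0.10 ± 0.26 over 15 months (adjusted p = 0.871). Without 18M-1 that slope turned from 0.0067 to -0.0157 per month. H2-DMa, which helps to exchange the invariant chain peptide, had 17.3, 19.0 and 19.5 CPM at 3M, 17.1, 17.2 and 17.5 at 6M, 20.2, 20.0 and 21.0 at 12M, and 19.1, 19.4 and 16.8 at 18M. Its slope was 0.07 ± 0.08 over 15 months (adjusted p = 0.719), and its mean was lowest at 6M. Only 44.1% to 53.0% of its reads were on its annotated exons, since an assembled transcript of 6411 nt held 57.3% of them. H2-DMb1, its partner, had 9.85, 8.22 and 4.69 CPM at 3M, 4.02, 7.72 and 7.05 at 6M, 7.01, 6.21 and 9.96 at 12M, and 4.34, 3.57 and 6.22 at 18M, with a slope of -0.50 ± 0.32 over 15 months (adjusted p = 0.439). Its reads were divided among the reference and 3 assembled transcripts that share exon bases with H2-DMb2, with 24.2% to 96.6% of them in the assembled ones. On its annotated exons its means were 4.46 ± 1.19, 4.19 ± 0.221, 4.58 ± 1.27 and 4.09 ± 0.695 CPM (SD, n = 3) in the order of age.

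Between 3M and 6M, 22 members were higher at 6M and 10 lower, and none was called by edgeR. The median log2 change of the members was 0.2335, where that of all genes was 0.0063. Of 32 members tested, 6 had an unadjusted p of 0.05 or less in edgeR and all 6 were higher at 6M, or 18.8%, against 2.38% of all genes that were higher at this p and 3.96% in both directions. The split at this p was 3 higher and 1 lower with all 12 libraries in the fit, 4 and 2 without 6M-1, and 5 and 1 without 3M-3. None passed the adjustment, with adjusted p-values between 0.952 and 1.0 over all members. In edgeR, H2-Aa was 1.63-fold higher (95% interval 1.24 to 2.16, unadjusted p = 0.00389), Cd74 1.46-fold (1.12 to 1.90, unadjusted p = 0.0115), H2-Eb1 1.36-fold (1.04 to 1.79, unadjusted p = 0.0317) and B2m 1.34-fold (1.10 to 1.62, unadjusted p = 0.00927). Erap1 and H2-D1 were 1.23-fold and 1.22-fold higher, with unadjusted p-values of 0.0412 and 0.0349. H2-Aa was called by DESeq2 (log2 change 0.70 ± 0.19, adjusted p = 0.0417), while its adjusted p reached 0.999 under other alternatives. In 6 members (B2m, Cd74, Erap1, H2-Aa, H2-D1 and H2-M3) the 3 libraries of 6M lay above those of 3M without overlap, as in 4.77% of all genes, and in 0 members below, against 4.81%.

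Library 6M-3 held the highest CPM of 12 of the 35 members and 18M-2 the lowest of 10. Without 6M-3, 4 members still had an unadjusted p of 0.05 or less, and the log2 changes shrank from 0.71 to 0.53 for H2-Aa, from 0.55 to 0.35 for Cd74 and from 0.42 to 0.27 for B2m, with p-values of 0.00876, 0.0235 and 0.00899, while H2-D1 and H2-Eb1 had p-values of 0.102 and 0.109. The summed macrophage markers (12 of 12 with reads) were also highest in 6M-3, with 3M libraries between 75.4 and 82.0 CPM, 6M between 77.4 and 94.0, 12M between 61.8 and 75.0 and 18M between 65.2 and 82.4. At 12M this sum lay below every 3M library, with 75.0 against 75.4 CPM at the closest, and 12M was not tested against 3M. Dendritic cell markers (6 of 6 with reads, though Clec9a and Cd209a had 14 and 11 reads in all) summed to 19.2 to 21.0 CPM at 6M and 19.4 to 20.1 at 3M. Most of that sum was Zbtb46 (14.3 CPM) and Flt3 (4.68 CPM). At 6M against 3M, 1 of 4 dendritic markers tested (Xcr1) was higher at an unadjusted p of 0.05 or less in edgeR, and 0 were lower. Of 12 macrophage markers, 2 (Cd163 and Lyz2) were higher at this p and 0 lower, where 2.38% of all genes were higher. The B cell sum of 113 to 135 CPM was nearly all Pax5 (123 CPM), and the defining B cell genes Cd79a and Cd79b had 40 and 14 reads over the 12 libraries. T and NK cell markers (8 of 9 with reads) summed to 5.78 to 8.27 CPM, with Ncr1 at 0 reads. The part of these cells in the values of the members was not tested.

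In the later steps more members were lower than higher at the later age, with 11 higher and 19 lower at 12M against 6M and 12 higher and 20 lower at 18M against 12M. The median log2 changes of the members were -0.0524 and -0.0699, where those of all genes were -0.0004 and -0.0001. Some members share 1 locus and its reads, so such counts are not of independent genes. Between 6M and 12M, 3 of 30 members had an unadjusted p of 0.05 or less, 10.0% against 8.72% of all genes. In edgeR, H2-DMa (1.18-fold, unadjusted p = 0.00738) and Nlrc5 (1.26-fold, unadjusted p = 0.00428) were higher at 12M, as were 4.14% of all genes, and Erap1 was lower (0.771-fold, unadjusted p = 0.0307). The libraries did not overlap in 3 members higher at 12M (H2-DMa, H2-Q5 and Nlrc5; 8.45% of all genes) and 1 lower (B2m; 7.99%). From 12M to 18M only H2-DMb1 had such a p in edgeR (0.613-fold, unadjusted p = 0.0224). That is 1 of 32 members or 3.12%, against 3.52% of all genes, and 0 members were higher at this p, against 1.65%. H2-DMa and H2-M3 lay lower at 18M without overlap, as did 4.42% of all genes, and 0 members lay higher, against 4.33%. On annotated exons alone the H2-DMa values overlapped, at 9.42, 9.45 and 10.9 CPM at 12M and 8.93, 10.2 and 8.88 at 18M. H2-DMb1 was at 4.58 ± 1.27 CPM at 12M and 4.09 ± 0.695 at 18M on its annotated exons (SD, n = 3). Neither gene was tested on that scale. Between 3M and 18M the member with an unadjusted p of 0.05 or less was H2-Aa, at 4.24 ± 0.204 CPM at 3M and 5.99 ± 1.78 at 18M (SD, n = 3), or 1.41-fold (95% interval 1.01 to 1.99). Without 18M-1 its log2 change of 0.50 became 0.29. The 3M-to-6M and 6M-to-12M steps share the 6M libraries, so they are not independent of each other.

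Nlrc5, the transactivator of class I genes, had most of its reads assigned to a short assembled transcript that lacks the first part of the gene. Its summed values were 14.9, 15.8 and 11.8 CPM at 3M, 12.8, 12.5 and 12.9 at 6M, 15.4, 15.3 and 17.3 at 12M, and 14.1, 12.9 and 16.9 at 18M, with a slope of 0.15 ± 0.12 over 15 months (adjusted p = 0.552). An assembled transcript of 24 exons and 3654 nt (chr8:94503810-94527269, plus strand, mm10) held 8886 of the 9357 reads, and 89.4% to 97.9% in single libraries, while the reference transcript of 49 exons and 6945 nt (chr8:94472763-94527272) held the other 471. The exon coverage deposited with the assemblies shows the break. Over exons 1 to 25 of the reference (3740 bases) the mean coverage was 0.138 to 0.764 reads per base in the 12 libraries, and no exon there reached 6 in any library. Over exons 26 to 49 (3205 bases) it was 18.1 to 35.1, and every exon was above 1 in every library. Exon 26 was intermediate, at 2.86 to 11.8.

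**Figure D5:**
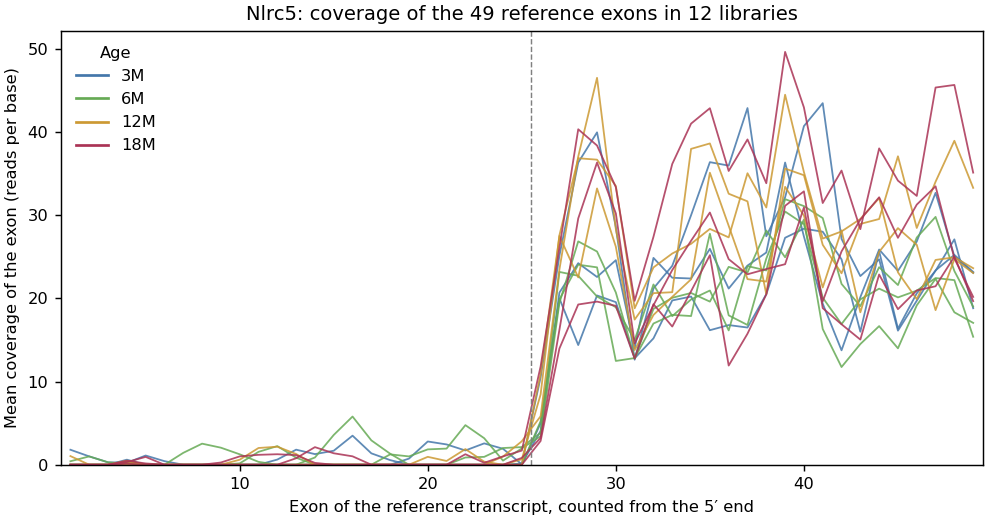
Mean coverage (reads per base, not normalized for depth) of each of the 49 exons of the Nlrc5 reference transcript, summed over both Nlrc5 transcripts, 1 line per library, coloured by age; the dashed line lies between exons 25 and 26. In all 12 libraries and at all 4 ages the coverage is under 6 before the line and lies between 11.8 and 49.7 from exon 27 on.

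The sequences of exons 25 to 27 are shown because the coverage jumps between them, from at most 2.82 reads per base in exon 25 to at least 14.0 in exon 27. They were read from the GENCODE vM21 transcript with the same 49 exons (GRCm38, plus strand), at chr8:94502219-94502302, chr8:94504381-94504464 and chr8:94505106-94505195, and exon 27, the first one shared with the short transcript, is in capitals.
Nlrc5 exon 25: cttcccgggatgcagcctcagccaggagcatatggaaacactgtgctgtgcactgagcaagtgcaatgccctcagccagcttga
Nlrc5 exon 26: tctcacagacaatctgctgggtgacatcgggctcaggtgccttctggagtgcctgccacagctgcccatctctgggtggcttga
Nlrc5 exon 27: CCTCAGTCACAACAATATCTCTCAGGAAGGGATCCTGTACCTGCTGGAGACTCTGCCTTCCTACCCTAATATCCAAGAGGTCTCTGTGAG

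The short transcript starts with an exon of 536 nt of its own (chr8:94503810-94504345), between exons 25 and 26 and in no exon of GENCODE vM21, and skips exon 26. That first exon was covered at only 1.37 to 3.62 reads per base, under the 18.1 to 35.1 over exons 26 to 49. NLRC5 is a protein with a nucleotide-binding domain followed by a long run of leucine-rich repeats. The break was present in all 12 libraries.

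Ciita, the class II transactivator, was near the limit of detection. It had 82 reads over the 12 libraries, with 0 in 3 of them, and a mean of 0.0182 FPKM. Its values were 0.181, 0 and 0 CPM at 3M, 0.104, 0.0416 and 0.0918 at 6M, 0.377, 0.0977 and 0.308 at 12M, and 0.168, 0 and 0.119 at 18M. A library without a read allows up to 3 reads, or 0.0445 to 0.0624 CPM depending on its depth. Ciita did not pass the filter and was not tested, and an effect of age on it was not detectable at this depth, although its class II target genes were at several FPKM.

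Several class I genes are listed under a pair of names whose exons coincide, and the assembler divided the reads of 1 locus between them. This holds for H2-D1 with H2-L, H2-Q7 with H2-Q9, H2-Q6 with H2-Q8 and H2-T22 with H2-T9, so that the 53 symbols stand for 49 loci. H2-T9 was at 0 reads in 12M-1, 12M-3 and 18M-2, where H2-T22 had 2.04, 1.85 and 1.69 CPM, its 3 highest values, and the sum of both spanned only 1.60 to 3.07 CPM. H2-Q6 was at 0 in 7 libraries and H2-Q8 in none, and their sum spanned 0.430 to 0.993 CPM. H2-Q9, which had the smallest p of all members in the slope (unadjusted p = 0.00582, adjusted p = 0.148 in edgeR), was at 0 in all libraries of 3M and 6M and in 8 of 12 in all. Summed with H2-Q7, which encodes Qa-2, the locus had 1.124, 1.42 and 1.502 CPM at 3M, 1.64, 1.33 and 2.04 at 6M, 1.81, 1.72 and 1.57 at 12M, and 1.98, 1.75 and 2.17 at 18M. The fitted change of the summed locus was 0.46 ± 0.16 log2 units over 15 months (unadjusted p = 0.0132, adjusted p = 0.189 in edgeR), so it was not called. All 3 values at 18M lay above those at 3M, as in 9.74% of all genes tested. Summing such loci was an alternative chosen after seeing the data.

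The other class I genes were low, and edgeR called none. H2-T23, which encodes Qa-1, the ligand of NK cell receptors, had means of 2.02 ± 0.526, 2.59 ± 0.792, 2.32 ± 0.132 and 2.06 ± 0.617 CPM (SD, n = 3) in the order of age. H2-Q4 had means of 2.90 ± 0.471, 3.51 ± 0.791, 3.45 ± 0.491 and 3.64 ± 0.274 CPM, with a slope of 0.25 ± 0.16 over 15 months (adjusted p = 0.441). H2-M3, which presents formylated peptides, had means of 0.724 ± 0.146, 1.05 ± 0.238, 0.861 ± 0.0727 and 0.647 ± 0.0861 CPM in the order of age. Of the 30 class I genes outside the classical ones, 18 were tested in the slope and 0 called, with a median of 0.0070 log2 units per month. The 18 members that failed the filter had at most 82 reads over the 12 libraries and a mean of at most 0.110 FPKM, and 12 of these were class I genes of the M, Q and T regions. H2-M1, H2-M2 and H2-M9 had 0 reads.

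H2-Ke6 had 9.33, 9.49 and 9.23 CPM at 3M, 7.96, 8.63 and 9.69 at 6M, 8.28, 8.91 and 10.2 at 12M, and 9.62, 9.29 and 9.33 at 18M, with a slope of 0.04 ± 0.08 over 15 months (adjusted p = 0.845). Cd1d1 spanned 0.386 to 0.975 CPM, with means of 0.560, 0.746, 0.754 and 0.552 CPM in the order of age.

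At the level of single transcripts the result was the same. edgeR called 0 of 59 member transcripts in the slope, against 0.0103% of all 58289 tested, and 0 of 53 between 18M and 3M, against 0.108% of 54472. At an unadjusted p of 0.05 or less there were 5 in the slope (8.47%, against 7.15% of all transcripts) and 0 between 18M and 3M (all transcripts, 5.40%), and DESeq2 called 0 in both comparisons. Among the 5 was the long Nlrc5 reference transcript (-0.0676 ± 0.0289 log2 units per month, adjusted p = 0.670), which holds few reads. Of the 17 members whose mean reached 1 FPKM at some age, 0 rose and 0 fell at every step from 3M to 18M, against 6.34% and 8.53% of all 13688 genes at that level.

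The other genes of the pathway gave a similar picture, with 33 genes listed by function (proteasome subunits, chaperones, cathepsins, the RFX and NF-Y factors and class I-like molecules). Of these, 32 were tested and 0 called in any of the 5 comparisons, with 5 of 32 at an unadjusted p of 0.05 or less in the slope, against 17.5% of all genes. Given for their levels, the chaperone Calr was far above the members at 221 FPKM, and the immunoproteasome subunits Psmb8 and Psmb9 were at 0.695 and 0.587 FPKM. Ctsb, a lysosomal protease, had a slope of -0.0273 ± 0.0082 log2 units per month (adjusted p = 0.144). Tapbpl, a relative of tapasin, went the other way (0.0221 ± 0.0084, adjusted p = 0.212). Of 16 interferon-induced genes, 0 were called in the slope, and 4 (Stat2, Gbp2, Irgm1 and Bst2) had an unadjusted p of 0.05 or less, all with a negative slope, where 17.5% of all genes had such a p in either direction. Their summed level spanned 24.6 to 25.7 CPM in the 3M libraries, 24.7 to 32.1 in those of 6M, 21.8 to 23.9 in those of 12M and 19.7 to 23.5 in those of 18M, and the highest value was again that of 6M-3.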

How the data were processed

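Total RNA of 12 testes was depleted of ribosomal RNA and sequenced as paired ends without strand information. HISAT2 (alignment to mm10) and StringTie 1.3.3b (assembly, merging and quantification of transcripts) were the tools of the authors. The deposited read counts are estimated counts per transcript (coverage times length over the read length of 101, rounded up by the authors), and the deposited FPKM values are not normalized between libraries. Both were summed per gene symbol over transcripts of class =, c, j or o. Exon coverage came from the authors' assemblies. Each library was grouped by its label.

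The quasi-likelihood test of edgeR 4.0.16 (R 4.3.3) was run on the counts after filterByExpr, with TMM factors and Benjamini-Hochberg adjustment over all genes, over all 12 libraries for the slope on age in months and over the libraries of both ages otherwise. A call was an adjusted p of 0.05 or less. DESeq2 1.42.0, limma 3.58.1 (log2 of FPKM plus 1 or 0.1), other normalizations, filters and class codes, the mouse number as a block and each library left out were alternatives. Sums and figures were made in Python 3.11.15, pandas 2.3.3 and matplotlib 3.10.9. The tests were checked on simulated counts. Values in every library are given for the 12 members with the highest mean FPKM and for the loading genes and transactivators. The members and lists were chosen with earlier results of these data known. Litters are not given in the sources used here, so p-values measure the spread between these mice only. Reads of antisense and overlapping genes cannot be told apart without strand. One item of the pathway list is not reported here.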

Additional observations from a re-analysis of the deposited data

Results flagged for a closer look

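Some transcripts that carry a member's symbol fall outside the rule, because the assembly places them in an intron, on the opposite strand or beyond the end of the gene, and 3 of them had more than 3 reads in every library. A single-exon transcript in an intron of H2-DMa (chr17:34129968-34135135, 5168 nt) had 5463 reads over the 12 libraries, 347 to 575 in each. A transcript on the strand opposite to Tapbp had 2116 reads, 122 to 270 in each, and its means in the order of age were 136 ± 22.8, 155 ± 21.2, 209 ± 60.0 and 206 ± 29.8 reads (SD, n = 3, not normalized for depth). The libraries keep no strand, so that its reads cannot be told apart from those of Tapbp, whose exons it overlaps. A transcript beyond the end of H2-Q8 had 271 reads, 10 to 34 in each. None of them was tested between ages.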

How the results depend on the processing

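The count of 0 members called held in all alternatives of the slope and of 18M against 3M, 12M against 6M and 18M against 12M, and in all but 1 of 6M against 3M, where DESeq2 called 1. Counts at an unadjusted p of 0.05 or less rested on few genes. With a library left out they ranged from 1 to 6 in the slope (3 as reported), 1 to 6 for 18M against 3M (1 as reported), 3 to 6 for 6M against 3M (6 as reported), 2 to 7 for 12M against 6M (3 as reported) and 0 to 4 for 18M against 12M (1 as reported). The slope count was 6 without 3M-3, 5 without 6M-3 and 1 without 18M-3. For 18M against 3M it was 5 without 3M-3, 6 without 18M-1, 3 without 18M-2 and 2 without 3M-2 or 18M-3. It was 3 without 3M-2 for 6M against 3M, and 6 without 6M-1 or 6M-2 and 7 without 12M-2 for 12M against 6M. For 18M against 12M it was 0 without 12M-3, 4 without 18M-1, 3 without 12M-1 and 2 without 12M-2 or 18M-3. Over all genes DESeq2 called 576 in the slope, 255, 66, 125 and 38 in the other comparisons in the order above, where edgeR called 76, 12, 9, 11 and 5, and edgeR with class = alone called 11 in the slope. The cause was not tested.

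For 18M against 3M the count was 0 with library size only, 0 with the replicate block, 0 with limma on log2(FPKM + 0.1), 2 with DESeq2, 2 with coinciding loci summed (an alternative chosen after seeing the data), 3 without the filter and 3 with all 12 libraries. For 6M against 3M it was 3 with class = alone. For 12M against 6M it was 8 without the filter, 5 with the replicate block, 0 with class = alone and 6 with all 12 libraries. For 18M against 12M it was 2 without the filter and 2 with limma under both pseudocounts. In the slope of transcripts an unadjusted p gave 5 in place of 0 called. Members rising at every step were 1 with medians, and members falling were 2, in place of 0, and each count ranged from 0 to 1 with a library left out.

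Slopes near 0 changed sign. That of H2-D1 (0.0008 per month) became -0.0002 with library size only, -0.0008 and -0.0009 with limma and -0.0005 with coinciding loci summed, and ranged from -0.0068 to 0.0082 with a library left out. That of H2-Ke6 became -0.0026 and -0.0029 with limma. With class = alone, which drops the assembled transcripts, the slopes of H2-Ke6, H2-DMa, Nlrc5 and H2-DMb1 became -0.0251, -0.1406, -0.0652 and 0.0583. With a library left out, the slope of Tapbp ranged from -0.0224 to 0.0099 and that of Cd74 from -0.0157 to 0.0205. Same-numbered libraries of different ages deviated together in no constant way (correlations of -0.05 to 0.105), which does not settle whether the mouse numbers pair the samples. With the replicate block the members stayed at 0 calls, as in the main fits. Over all genes the edgeR calls went from 76 to 42 in the slope, from 12 to 7 for 18M against 3M and from 11 to 0 for 12M against 6M. Depth limits the members under 1 FPKM, of which 18 could not be tested.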
